A study of Mus musculus with 49 samples.

Results

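The genes described here bear the names of proteasome subunits (Psm), ubiquitin-conjugating enzymes (Ube2) and ubiquitin-specific proteases (Usp). They were chosen by name, as the array annotation spells it: Psma to Psmg followed by a digit, any Ube2, and Usp followed by a digit. Usp18, whose protein removes the ubiquitin-like modifier ISG15, was not included. The array carried 71 such genes of 5880 genes in all, 29 of them Psm, 15 Ube2 and 27 Usp, on 107 spotted cDNA clones. For the 28 genes with more than 1 clone, the clone with the highest mean signal stands for the gene. Usp52 and Ube2q keep the annotation's names and are now Pan2 and Ube2q1.

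RNA was measured in peripheral blood mononuclear cells (PBMC) of anesthetized female wild-type C57Bl/6J mice, 7 weeks old, injected through the tail vein. Oleic acid (OA), a lipid used to produce acute lung injury in animals, was given to 26 mice at 20 µl per mouse (1.2 µl per g of body weight), and blood was examined at 1 h (4 mice), 1.5 h (6), 3 h (4), 4 h (4), 18 h (4) and 24 h (4). Physiological serum was given to 11 control mice, examined at 1 h (2), 1.5 h (1), 3 h (2), 4 h (2), 18 h (2) and 24 h (2). The series text counts 1 more OA mouse at 3 h and 1 more serum mouse at 1.5 h, and neither was analysed here. Below, early means 1 and 1.5 h, middle 3 and 4 h, and late 18 and 24 h. The series asks whether blood cell expression marks stages of the injury.

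Cells mark proteins for destruction with chains of ubiquitin. An activating enzyme loads ubiquitin onto a conjugating enzyme, which with a ligase passes it to the target, and deubiquitinases such as the Usp proteases remove it again. The proteasome is a barrel of alpha and beta rings with the cutting sites inside, closed by a cap that binds ubiquitin chains, unfolds the protein and feeds it in. In immune cells interferon exchanges the catalytic beta subunits for immunoproteasome subunits, which favour peptides for display by MHC class I, and maturing red cells use the ubiquitin system to clear proteins as they differentiate.

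Each RNA was amplified linearly and hybridised with a radioactive label to nylon filters, 49 filters for 37 mice. For 12 mice there were 2 filters, which were averaged. The members differed between such paired filters by a median of 0.26 on the log2 scale. Median clone signal per filter ranged from 83 to 364, and 41.7% to 57.8% of clone spots were well above the empty spots. Among cell markers, Cd3e and Lck of T cells and Cd79b and Cd74 of B cells were well above the empty spots on all 49 filters, Csf1r of monocytes on 48, Nkg7 of cytotoxic cells on 40, Cd3g on 5 and Cd14 on 0. The neutrophil gene S100a8, the erythroid gene Alas2 and the platelet gene Pf4 were also above them on all 49, and the hemoglobin gene Hba-a1 was at the signal ceiling on all 49. The extraction text speaks of lung while the source and tissue labels give PBMC. In such bulk samples fewer cells of a type and less RNA per cell cannot be told apart.

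Of the 37 mice, 7 stood apart from the other 30 on the first principal component of all clones, which held 36.2% of the variance. They were OA mouse 7 at 3 h, OA mice 2 and 3 at 4 h, OA mouse 2 at 18 h, serum mice 1 and 4 at 4 h and serum mouse 1 at 18 h. In these 7 mice 41.7% to 49.2% of clone spots were well above the empty spots, against 46.2% to 57.8% in the others. Several members separated them without overlap, in both directions. The component was computed from all clones, members included, so such gaps follow in part from how these mice were picked. The share of all clones with such a gap is not given, and the values below only describe the 7 mice. Psmb1, a subunit of the beta ring, measured 10.90 to 11.67 (log2 normalised signal, the scale of all values per mouse below) in the 7 mice and 9.23 to 10.09 in the other 30. Psmb4, of the same ring, measured 7.65 to 8.88 in the 7 mice and 9.37 to 10.69 in the others. These subunits of 1 ring thus lay on opposite sides. Psmd4, a ubiquitin receptor of the cap, measured 6.81 to 7.79 in the 7 mice and 8.34 to 10.06 in the others. Usp12, a deubiquitinase, measured 8.89 to 9.97 in the 7 mice and 10.39 to 12.11 in the others, and Ube2g1, a conjugating enzyme, 9.17 to 10.76 and 7.75 to 8.99.

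Changes are given as log2 differences between group means with a standard error (SE), from limma. Of the 71 members, 30 were well above the empty spots on every filter, 56 on the majority of filters and 3 on none. The SD over the 37 mice had a median of 0.43 among members, against 0.38 among all clones. Ube2l6 (SD 1.27), Psmb10 (1.06), Usp22 (0.98) and Usp12 (0.92) varied most.

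Late OA mice differed from early OA mice in 4 members: Usp25 and Usp14 rose, and Usp3 and Psmb2 fell. Middle OA mice differed from early OA mice in 9 members, of which Psmd12, Usp14, Usp16 and Usp25 rose and Psma7, Psmb6, Ube2g2, Ube2l3 and Usp12 fell. No member passed the test between OA and serum mice. The 4 late members are 5.63% of 71, where 8.23% of all 7739 clones passed, 4.35% up and 3.88% down. The 9 middle members are 12.7%, where 9.21% of all clones passed, 3.02% up and 6.19% down. Both shares are near those of the whole array and are no result about these families. The median difference of the members was -0.01 late, against -0.01 over all clones, and 0.06 in the middle stage, against 0.05. Late, 35 members had positive and 36 negative differences, and in the middle stage 40 and 31.

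**Figure D1:**
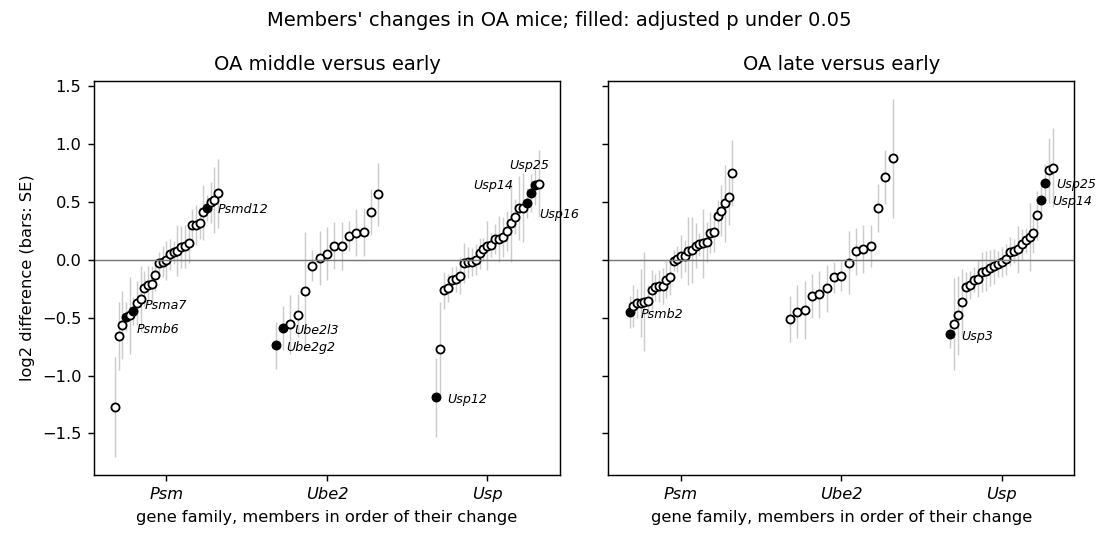
Log2 differences of the 71 members between middle and early OA mice (left panel) and between late and early OA mice (right panel), by family; bars are SE and filled points passed an adjusted p of 0.05. Each family spreads to both sides of 0, with 9 filled points in the middle comparison and 4 in the late one.

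Psma7, Psmb6 and Psmd12 were the Psm genes called in the middle stage, and their promoters are shown for that reason. Psma7 encodes an alpha ring subunit, Psmb6 the constitutive caspase-like catalytic subunit and Psmd12 a subunit of the cap's lid. The windows hold 300 bases around the start site in RefSeq (GRCm38.p6): chr2:180042415-180042714 on the reverse strand for Psma7, chr11:70525107-70525406 on the forward strand for Psmb6 and chr11:107479278-107479577 on the forward strand for Psmd12. Capitals mark the core of the antioxidant response element, TGACNNNGC, searched on both strands, to which the factors NRF1 and NRF2 are known to bind.
Psma7: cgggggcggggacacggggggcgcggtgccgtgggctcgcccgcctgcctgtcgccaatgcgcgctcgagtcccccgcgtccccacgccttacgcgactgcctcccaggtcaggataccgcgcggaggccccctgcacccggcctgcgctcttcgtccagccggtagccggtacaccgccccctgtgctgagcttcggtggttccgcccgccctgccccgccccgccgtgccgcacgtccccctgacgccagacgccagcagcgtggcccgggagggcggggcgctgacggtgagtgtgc
Psmb6: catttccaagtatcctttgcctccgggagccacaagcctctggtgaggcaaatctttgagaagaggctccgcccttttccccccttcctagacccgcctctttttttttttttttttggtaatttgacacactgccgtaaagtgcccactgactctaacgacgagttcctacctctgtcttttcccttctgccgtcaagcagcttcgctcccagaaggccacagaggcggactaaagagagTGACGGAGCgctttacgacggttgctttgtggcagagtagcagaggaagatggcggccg
Psmd12: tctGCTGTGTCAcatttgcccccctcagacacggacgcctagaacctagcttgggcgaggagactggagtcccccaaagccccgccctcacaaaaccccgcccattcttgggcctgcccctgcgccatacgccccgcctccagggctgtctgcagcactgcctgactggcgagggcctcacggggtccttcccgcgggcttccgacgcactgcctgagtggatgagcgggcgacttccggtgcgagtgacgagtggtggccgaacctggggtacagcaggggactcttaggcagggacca
The Psmb6 match begins at -9 from the start site on the forward strand, and the Psmd12 match at -247 on the reverse strand. These letters are not in the Psma7 window. The core was found in 10 of the 54 members with a promoter entry (18.5%), among them Psmb5, Psme4 and Usp25, and in 12.4% of all 32851 promoters. A member counted when any of its entries matched, and some have 2 or 3. The 12.4% counts single entries, so the 2 shares are not of the same unit. A match is a description of letters only. Nfe2l2, which encodes NRF2, rose in middle (0.72, adjusted p = 0.0113) and late OA mice (0.65, adjusted p = 0.0176). Keap1, whose protein marks NRF2 for destruction, fell in middle OA mice (-0.57, adjusted p = 0.0194). Psmb6 and Psmd12, whose windows hold the core, moved in opposite directions in the middle stage, Psmb6 down and Psmd12 up. Whether NRF2 acted on these promoters was not tested.

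Among the ring subunits, Psmb6 and Psma7 fell in the middle stage. Psmb6 measured 8.56, 8.84, 8.88 and 8.00 in the OA mice at 3 h and 7.99, 7.98, 8.10 and 8.30 at 4 h, against 8.60 to 9.03 (median 8.89) in the 10 early OA mice. All 4 mice at 4 h and 2 of the 4 at 3 h were below the whole early range. It averaged 8.33 ± 0.38 in middle OA mice and 8.83 ± 0.15 in early OA mice (SD, n = 8 and 10), a difference of -0.49 (SE 0.12, 1.41-fold lower, adjusted p = 0.0168). The serum mice at 4 h, both among the mice that stood apart, measured 7.32 and 8.04 and so were low as well. Late OA mice did not pass the test (-0.38, adjusted p = 0.0589). Psmb6 passed late with the mouse number as a block (-0.42, adjusted p = 0.0249) and without the mice that stood apart. At 24 h alone it was lower too (-0.46, adjusted p = 0.0261).

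Psma7 measured 9.36, 9.51, 9.56 and 8.85 in the OA mice at 3 h and 8.42, 8.86, 8.70 and 8.77 at 4 h, against 9.20 to 9.81 (median 9.40) in early OA mice. The whole 4 h group lay below the early range, and 1 of the 4 mice at 3 h did. The difference was -0.44 (SE 0.12, 1.36-fold lower, adjusted p = 0.0205). Its other 2 clones gave -0.53 and -0.55 and did not pass. At 24 h all 4 OA mice were again below the early range, with 9.11, 8.66, 8.88 and 8.73, whereas those at 18 h measured 9.24, 9.52, 9.84 and 9.69.

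Psmb2, a structural subunit of the beta ring, fell late. It measured 8.05, 8.31, 7.77 and 8.07 in the OA mice at 18 h and 7.94, 7.64, 7.90 and 7.66 at 24 h, against 7.96 to 8.77 (median 8.41) in early OA mice. All 4 mice at 24 h and 1 of the 4 at 18 h were below the early range. It averaged 7.92 ± 0.23 in late OA mice and 8.39 ± 0.29 in early OA mice (SD, n = 8 and 10), a difference of -0.45 (SE 0.14, 1.37-fold lower, adjusted p = 0.0376). The call was lost in 10 of the 37 fits that each left out 1 mouse, with an adjusted p up to 0.108. Here and below, the 37 include fits that left out a mouse of neither stage compared. Such counts are thus no share of the compared mice alone. Among the other ring subunits, Psma6 gave the next lowest late difference (-0.40, adjusted p = 0.161), and Psmb4 was low (-0.66, adjusted p = 0.152) and Psmb1 (0.57, 0.213) and Psma1 (0.50, 0.0713) high in the middle stage without passing.

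The immunoproteasome genes were not called over the whole middle or late stage, while at single hours Psmb10 was lower at 4 h (-1.72, adjusted p = 0.0177) and Psmb9 at 24 h (-0.68, 0.0255). Psmb10, the interferon-induced counterpart of the trypsin-like subunit, measured 9.08, 8.35, 9.26 and 6.23 in the OA mice at 3 h and 6.39, 6.95, 8.52 and 7.47 at 4 h, against 8.09 to 9.92 (median 9.33) in early OA mice. Its middle difference was the most negative of all members and missed the threshold, at -1.27 (SE 0.43, 2.42-fold lower, adjusted p = 0.0592), which it passed with the mouse number as a block (-1.45, adjusted p = 0.0329). The 3 lowest of these 8 values belong to the mice that stood apart, and without those mice the difference was -0.61, adjusted p = 0.394. Serum mice measured 9.62 and 9.61 at 3 h and 7.02 and 6.77 at 4 h. Late OA mice gave -0.36, adjusted p = 0.633.

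Psmb9, the interferon-induced counterpart of Psmb6, gave -0.22, adjusted p = 0.395, in middle and -0.17, adjusted p = 0.53, in late OA mice. Psme1, a subunit of the interferon-induced activator ring, gave -0.21, adjusted p = 0.389, and -0.23, adjusted p = 0.355. Neither gene passed over a whole stage, and at 24 h alone Psme1 was lower (-0.54, adjusted p = 0.0305). Of the constitutive partners, Psmb5, the chymotrypsin-like subunit, gave -0.57, adjusted p = 0.212, in the middle and 0.08, adjusted p = 0.901, in the late stage. Psmb7, the trypsin-like subunit, gave 0.06, adjusted p = 0.703, and 0.13, adjusted p = 0.412.

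Of the cap subunits, Psmd12 rose in the middle stage. It measured 7.94, 8.25, 8.00 and 8.44 in the OA mice at 3 h and 8.20, 8.32, 7.84 and 7.87 at 4 h, against 7.37 to 7.87 (median 7.72) in early OA mice. All 4 mice at 3 h and 3 of the 4 at 4 h were above the early range, where 10 of 13 filters were well above the empty spots. It averaged 8.11 ± 0.22 in middle OA mice and 7.66 ± 0.16 in early OA mice (SD, n = 8 and 10), a difference of 0.45 (SE 0.11, 1.36-fold higher, adjusted p = 0.013), and it passed whichever single mouse was left out. Psmd8, another lid subunit, gave 0.51, adjusted p = 0.244, in the middle and 0.75, adjusted p = 0.0948, in the late stage, where it passed with the mouse number as a block (0.96, adjusted p = 0.0256). Psmd6, also of the lid, gave 0.54, adjusted p = 0.148, late.

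**Figure D2:**
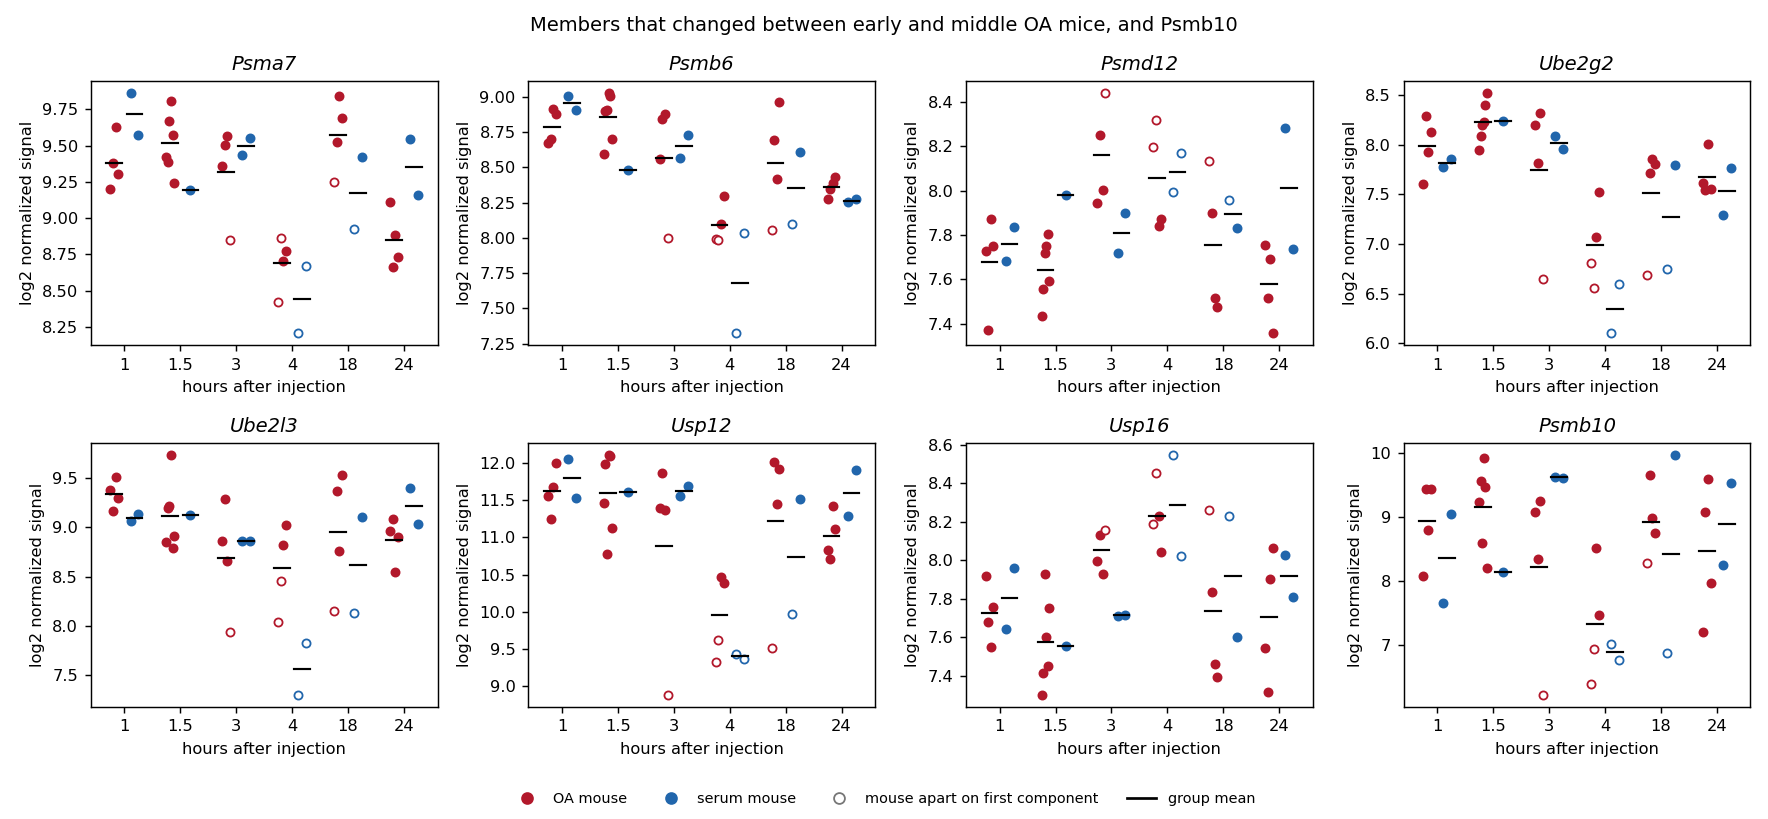
Log2 normalised signal of 8 members in each mouse by hours after injection, OA mice left of serum mice at each time, with group means as lines; open circles are the 7 mice that stood apart. Psma7, Psmb6, Ube2g2 and Usp12 lay below the early OA range in all 4 OA mice at 4 h, 2 of which are open circles.

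Of the 15 conjugating enzymes, Ube2g2 and Ube2l3 fell in the middle stage and none was called late. Ube2g2 serves the removal of misfolded proteins from the endoplasmic reticulum. It measured 8.20, 7.82, 8.32 and 6.65 in the OA mice at 3 h and 6.80, 6.56, 7.07 and 7.52 at 4 h, against 7.60 to 8.52 (median 8.17) in early OA mice. All 4 mice at 4 h and 1 of the 4 at 3 h lay below the early range, and 5 of 11 middle filters were well above the empty spots, against 13 of 13 early ones. It averaged 7.37 ± 0.70 in middle OA mice and 8.13 ± 0.26 in early OA mice (SD, n = 8 and 10), a difference of -0.74 (SE 0.20, 1.67-fold lower, adjusted p = 0.0216). The serum mice at 4 h measured 6.10 and 6.59, also below the early OA range.

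Ube2l3, which passes ubiquitin to ligases of the HECT and RBR classes, measured 8.87, 9.29, 8.66 and 7.94 in the OA mice at 3 h and 8.04, 8.46, 8.82 and 9.02 at 4 h, against 8.79 to 9.74 (median 9.21) in early OA mice. At each of the 2 times, 2 of the 4 mice lay below the early range. It averaged 8.64 ± 0.47 in middle OA mice and 9.21 ± 0.30 in early OA mice (SD, n = 8 and 10), a difference of -0.59 (SE 0.19, 1.51-fold lower, adjusted p = 0.0496). This call lay at the threshold and was lost in 24 of the 37 fits that left out 1 mouse. The other 3 clones of the gene gave -0.22, -0.43 and -0.14, and none passed.

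The remaining conjugating enzymes did not pass the test. In the middle stage Ube2g1 (0.56, adjusted p = 0.179), Ube2e3 (0.41, 0.185) and Ube2q2 (0.24, 0.478) had the highest differences, and Ube2j1, a membrane-bound enzyme that also serves quality control in the endoplasmic reticulum, a low one (-0.56, 0.16). In the late stage Ube2l6 (0.87, adjusted p = 0.28), Ube2c (0.71, 0.0532) and Ube2b (0.45, 0.164) were highest, and Ube2g2 (-0.51, 0.104), Ube2s (-0.45, 0.217) and Ube2j1 (-0.43, 0.279) lowest. Ube2c and Ube2s start and extend ubiquitin chains for the anaphase-promoting complex, and Ube2b marks histones. The second clone of Ube2b passed late (0.94, adjusted p = 0.00455), so its 2 clones had the same sign and different calls. Ube2m, an enzyme for NEDD8, gave -0.48, adjusted p = 0.087, in the middle and 0.12, adjusted p = 0.72, in the late stage.

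Among the 27 Usp genes, Usp3 fell late. Usp3 removes ubiquitin from histones. It measured 9.10, 9.80, 9.14 and 9.15 in the OA mice at 18 h and 8.61, 8.75, 9.04 and 8.89 at 24 h, against 9.45 to 9.90 (median 9.72) in early OA mice. All 4 mice at 24 h and 3 of the 4 at 18 h lay below the whole early range. It averaged 9.06 ± 0.36 in late OA mice and 9.70 ± 0.14 in early OA mice (SD, n = 8 and 10), a difference of -0.64 (SE 0.12, 1.56-fold lower, adjusted p = 0.00296). It passed whichever single mouse was left out, with an adjusted p up to 0.0122. In the middle stage it gave -0.24, adjusted p = 0.198.

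Usp25, which trims ubiquitin chains in inflammatory signalling, rose in both stages. It measured 8.75, 8.65, 8.50 and 8.20 in the OA mice at 3 h, 8.81, 8.55, 9.20 and 8.16 at 4 h, 8.39, 8.51, 8.52 and 8.02 at 18 h and 9.47, 8.88, 7.95 and 9.28 at 24 h, against 7.50 to 8.32 (median 7.92) in early OA mice. At each of these 4 times, 3 of the 4 mice lay above the early range. It averaged 8.60 ± 0.34 in middle OA mice and 7.95 ± 0.26 in early OA mice (SD, n = 8 and 10), a difference of 0.64 (SE 0.16, 1.56-fold higher, adjusted p = 0.0179). In the late stage it averaged 8.63 ± 0.55 in late OA mice and 7.95 ± 0.26 in early OA mice, a difference of 0.67 (SE 0.16, 1.59-fold higher, adjusted p = 0.0138). Both calls held whichever single mouse was left out.

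Usp14, a protease that works on the cap of the proteasome, also rose in both stages. It measured 8.40, 7.78, 8.18 and 8.60 in the OA mice at 3 h, 8.65, 8.55, 8.88 and 9.37 at 4 h, 8.48, 8.04, 8.66 and 8.05 at 18 h and 9.05, 8.68, 8.57 and 8.41 at 24 h, against 7.36 to 8.47 (median 8.05) in early OA mice. The 4 mice at 4 h were all above the early range, and 1 of the 4 at 3 h was. The middle difference was 0.58 (SE 0.16, 1.49-fold higher, adjusted p = 0.0289), and the late difference 0.52 (SE 0.16, 1.43-fold higher, adjusted p = 0.0476). The late call was lost in 16 of the 37 fits that left out 1 mouse, with an adjusted p up to 0.147.

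Usp12, whose protease needs the partner protein WDR48 for full activity, had the most negative middle difference of its family. It measured 11.39, 11.87, 11.37 and 8.89 in the OA mice at 3 h and 9.32, 9.63, 10.47 and 10.39 at 4 h, against 10.77 to 12.11 (median 11.61) in early OA mice. Below the early range were all 4 mice at 4 h and 1 of the 4 at 3 h. It averaged 10.41 ± 1.08 in middle OA mice and 11.60 ± 0.46 in early OA mice (SD, n = 8 and 10), a difference of -1.19 (SE 0.34, 2.28-fold lower, adjusted p = 0.0305). The serum mice measured 11.55 and 11.69 at 3 h and 9.44 and 9.37 at 4 h, so the 2 serum mice at 4 h were low too.

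Usp16, which removes ubiquitin from histone H2A, measured 8.00, 8.13, 7.93 and 8.15 in the OA mice at 3 h and 8.19, 8.45, 8.23 and 8.04 at 4 h, against 7.30 to 7.93 (median 7.64) in early OA mice. Above the early range were all 4 mice at 4 h and 3 of the 4 at 3 h. The difference was 0.49 (SE 0.13, 1.40-fold higher, adjusted p = 0.0189). Of the Usp genes that did not pass, Usp45 (0.80, adjusted p = 0.131) and Usp15 (0.77, 0.0787) had the highest late differences, and Usp22 (-0.55, 0.391) and Usp12 (-0.48, 0.383) the lowest. Usp22 is the protease of the SAGA coactivator complex. In the middle stage Usp9x gave 0.66, adjusted p = 0.145, Usp22 -0.77, 0.215, and Usp52 -0.26, 0.275.

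**Figure D3:**
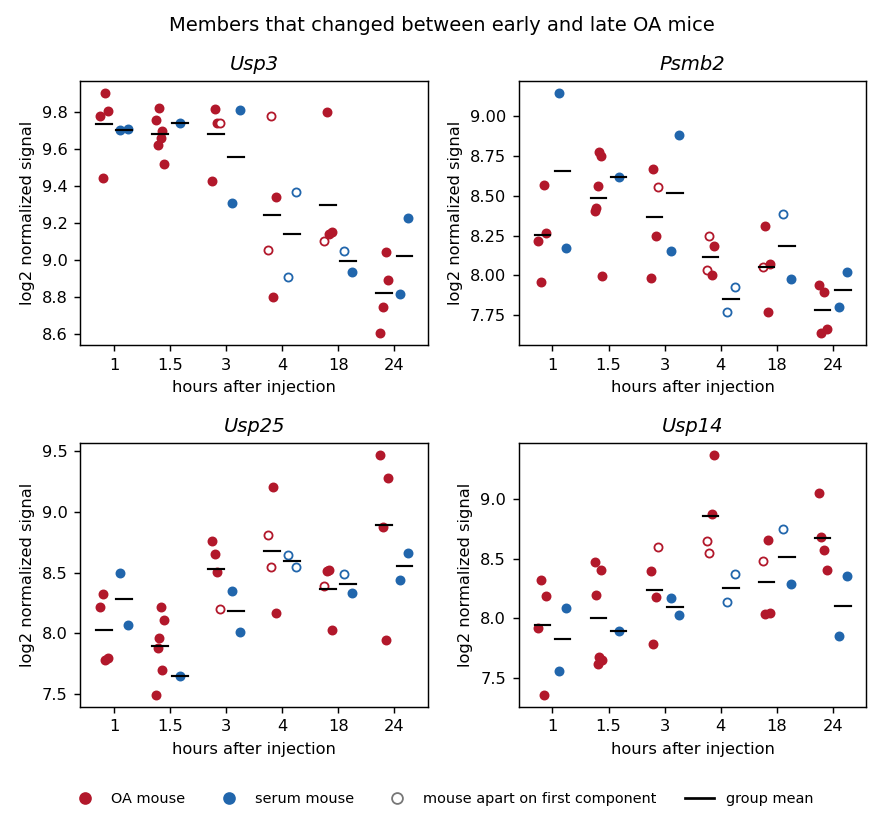
Log2 normalised signal of Usp3, Psmb2, Usp25 and Usp14, the 4 members called between late and early OA mice, in each mouse by hours after injection, with OA mice left of serum mice, group means as lines and open circles for the 7 mice that stood apart. Usp3 and Psmb2 lay below the early OA range in all 4 OA mice at 24 h.

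The late calls depended on the mice at 24 h. Median clone signal was 97.5, 103, 196 and 128.5 in the OA mice at 24 h and 140 to 200 at 18 h. It was 170 to 364 in early OA mice, and 191 and 195 in the serum mice at 24 h. Whether the low signal at 24 h bears on the calls was not tested. At 24 h alone against early, 15 members were called, 21.1% of 71, where 16.8% of all clones were. At 18 h alone none was, where 0.103% of all clones were. Usp3 gave -0.88, adjusted p = 0.000541, at 24 h and -0.41, adjusted p = 0.325, at 18 h. At 18 h Usp25 (0.40, adjusted p = 0.382), Usp14 (0.33, 0.591) and Psmb2 (-0.32, 0.533) kept their sign with smaller differences. The ring subunits Psma7 (-0.60, adjusted p = 0.00654), Psma6 (-0.63, 0.0267), Psmb2 (-0.59, 0.0245), Psmb6 (-0.46, 0.0261) and Psmb9 (-0.68, 0.0255) and the activator subunit Psme1 (-0.54, 0.0305) were lower at 24 h. The cap subunits Psmd4 (0.98, adjusted p = 0.0346) and Psmd8 (1.12, 0.0363) were higher, as were Ube2c (1.29, 0.00587), Ube2b (1.06, 0.00725), Ube2l6, Usp25 (0.93, 0.0058) and Usp14 (0.70, 0.0234). Ring and cap did not split cleanly by direction. Without passing, the cap subunits Psmc2 (-0.46, adjusted p = 0.0558) and Psmd14 (-0.44, 0.0582) were lower and the ring subunit Psmb7 (0.21, 0.256) higher. Psme4, the gene of the activator PA200, gave 0.59, adjusted p = 0.0234, and was well above the empty spots on no filter of early or late OA mice.

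Psmd4 measured 10.06, 9.86, 9.72 and 9.88 in the OA mice at 24 h, all above the early range of 8.64 to 9.28 (median 8.85). At 18 h it measured 7.03, 9.72, 9.52 and 9.29, and the low value there belongs to a mouse that stood apart. The other 3 were above the early range as well. Psmd8 measured 12.01, 12.45, 12.00 and 12.26 at 24 h, against 10.00 to 12.18 (median 11.12) in early OA mice, and 2 of the 4 lay above that range. The second clone of Psmd8 gave 0.12, adjusted p = 0.602, over the late stage.

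Ube2l6, which conjugates the interferon-induced modifier ISG15 and also serves ubiquitin ligases, was high at 24 h under both treatments. The OA mice at 24 h measured 13.85, 13.56, 13.33 and 13.87, against 10.05 to 13.11 (median 11.65) in early OA mice, and the serum mice at 24 h measured 13.65 and 13.39. All 4 OA mice lay above the early range, a difference of 1.86 (SE 0.62, 3.63-fold higher, adjusted p = 0.0415). At 18 h it measured 10.28, 12.26, 12.64 and 11.55 in OA mice, within the early range. Alas2, the first enzyme of heme synthesis in red cell precursors, measured 14.29, 13.97, 14.28 and 14.13 in the OA mice at 24 h, against 9.95 to 14.17 (median 12.21) in early OA mice, and 13.78 and 13.96 in the serum mice at 24 h.

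Cell type markers moved with these stages. Of 26 measured erythroid genes, 25 had positive late differences and 6 were called up, where 3741 of all 7739 clones were positive and 4.35% were called up. The 26 include Hba-a1, at the ceiling on all 49 filters, whose sign (4.8e-05) carries no information. Of the 6, Car1 was well above the empty spots on 1 filter and Rhd on 4. Their mean deviation from each gene's average over mice was 0.33 to 0.78 in the OA mice at 24 h, -0.22 to 0.17 at 18 h and 0.41 to 0.44 in the serum mice at 24 h, against -0.56 to 0.13 in early OA mice. Of 13 neutrophil genes, 11 had negative late differences and 5 fell, where 3998 of all clones were negative and 3.88% fell, with a mean deviation of -0.94 to 0.31 in late and -0.35 to 1.27 in early OA mice. In the middle stage 12 of 14 B cell genes were negative and 3 fell, where 3388 of all clones were negative and 6.19% fell, with -0.52 to 0.03 in middle and -0.38 to 0.40 in early OA mice. Their part in the results was not tested.

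**Figure D4:**
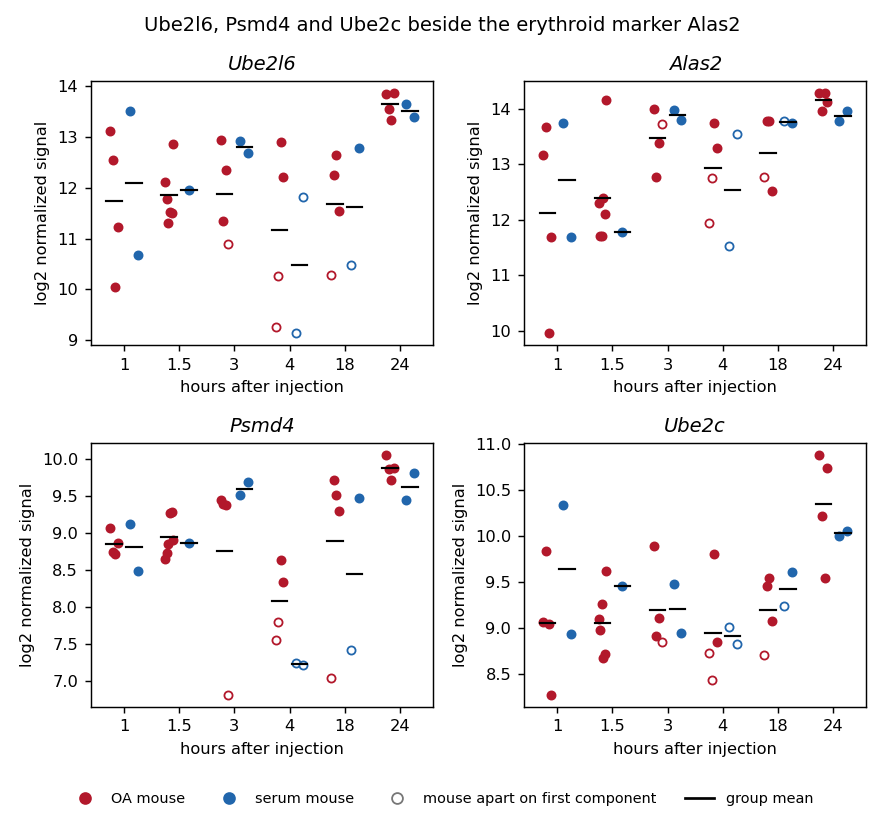
Log2 normalised signal of Ube2l6, Psmd4 and Ube2c and of the erythroid marker Alas2 in each mouse by hours after injection, OA mice left of serum mice, group means as lines and open circles for the 7 mice that stood apart. Ube2l6 and Psmd4 lay above the early OA range in all 4 OA mice at 24 h.

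The middle calls depended on the hour and on the mice that stood apart. At 4 h alone against early, 16 members were called, 22.5% of 71, where 19.1% of all clones were, and at 3 h alone none was, where 0.0388% of all clones were. At 4 h Usp12 (-1.65, adjusted p = 0.0037), Psmb10 (-1.72, 0.0177), Ube2g2 (-1.12, 0.00167), Psmb5 (-1.11, 0.0132) and Psmb4 (-1.02, 0.021) were lower, and Ube2g1 (1.04, 0.0323) and Usp9x (1.00, 0.049) higher. At 3 h alone Psmd12 (0.50, adjusted p = 0.247), Usp25 (0.57, 0.38), Usp16 (0.40, 0.43) and Ube2l3 (-0.54, 0.482) had differences close to those of the whole stage without passing. Psma7 (-0.13, adjusted p = 0.798), Psmb6 (-0.25, 0.606), Ube2g2 (-0.36, 0.66), Usp14 (0.27, 0.693) and Usp12 (-0.72, 0.616) had smaller ones at 3 h. Without the 7 mice that stood apart, which leaves 5 of 8 middle OA mice, 1 member was called, where 2.92% of all clones were. It was Psmd7, a lid subunit (0.56, adjusted p = 0.0246), and none of the 9 above. Of these, Usp12 (-0.62, adjusted p = 0.0995), Ube2g2 (-0.40, 0.088) and Ube2l3 (-0.30, 0.298) had smaller differences, and Usp25 (0.70, 0.0633), Usp14 (0.65, 0.0622) and Usp16 (0.43, 0.0621) kept about their size. Psmb6 (-0.34, adjusted p = 0.0517), Psma7 (-0.34, 0.0836) and Psmd12 (0.30, 0.142) lay between. The count of 9 was 2 without OA mouse 7 at 3 h, 5 without OA mouse 2 at 4 h or OA mouse 5 at 1 h, and 0 without the 1.5 h mice.

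Without the same 7 mice, 12 members were called late, where 17.6% of all clones were. Usp3 (-0.61, adjusted p = 0.00277), Usp25 (0.66, 0.0201) and Psmb2 (-0.45, 0.0422) were among them, and Usp14 (0.49, 0.0505) was not. Psmd4 (0.80, adjusted p = 0.000646), Ube2s (-0.56, 0.00713), Psma6 (-0.53, 0.0194) and Ube2c (0.80, 0.0301) were called in addition, as were Psmb6, Psmc3, Psme4, Ube2a and Ube2g2. With the other mice kept, the late count of 4 was 7 without OA mouse 3 at 1 h, OA mouse 7 at 3 h or OA mouse 5 at 24 h. It was 2 without OA mouse 5 or 6 at 1 h, 5 or 6 at 1.5 h, 5 at 18 h, or 2, 3 or 6 at 24 h, and 0 without the 1.5 h mice.

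The serum mice show the same interval without OA. Late against early, 60 of the 71 members had the same sign in OA and in serum mice, 84.5%, where 74.7% of all clones did. The 2 comparisons share no mice. The count was 15 of 15 among Ube2, 23 of 27 among Usp and 22 of 29 among Psm genes. Without the mice that stood apart it was 57 of 71 (80.3%), where 75.1% of all clones had the same sign. By family it was then 13 of 15 among Ube2 (86.7%), 23 of 27 among Usp (85.2%) and 21 of 29 among Psm genes (72.4%). Usp3 measured 9.05 and 8.94 at 18 h and 8.82 and 9.23 at 24 h in serum mice, against 9.70 and 9.70 at 1 h and 9.74 at 1.5 h, with no overlap. Its serum difference was -0.71 (SE 0.20, adjusted p = 0.49). Psmb2 (-0.59, adjusted p = 0.49), Ube2j1 (-1.08, 0.497) and Psmd8 (1.17, 0.509) were the other members at an unadjusted p under 0.05, 4 in all, where 8.71% of all clones reached it. After adjustment 0 members passed in limma, where 0.0258% of all clones did.

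**Figure D5:**
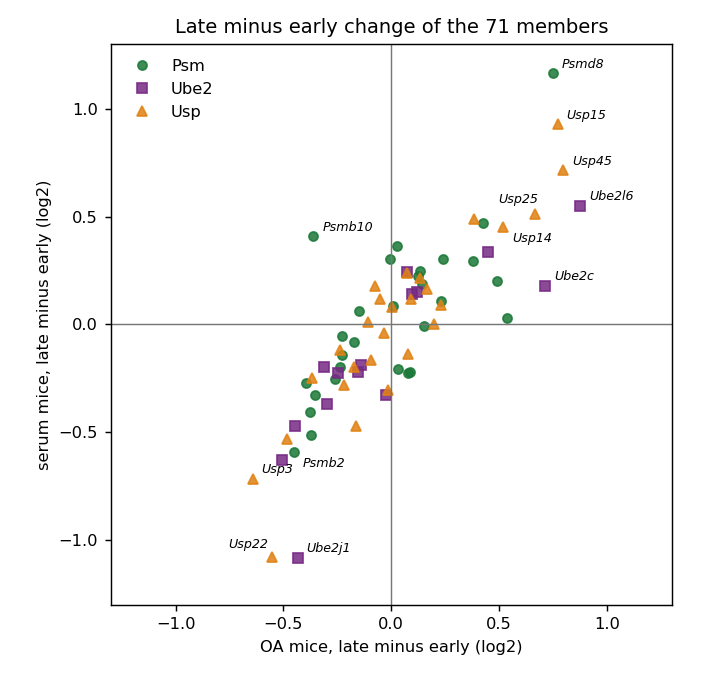
Late minus early log2 difference of each of the 71 members in OA mice (horizontal axis) and in serum mice (vertical axis), by family. Of the points, 30 lie in the upper right with both differences positive and 30 in the lower left with both negative.

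The test of OA against serum gave no call among members. The late change in OA mice minus that in serum mice was 0.07 (SE 0.24) for Usp3, 0.15 (SE 0.32) for Usp25, 0.07 (SE 0.32) for Usp14, 0.14 (SE 0.26) for Psmb2 and 0.33 (SE 0.99) for Ube2l6. The SE of this difference had a median of 0.33 over the members. In limma 0 members and 0% of all clones passed, and 0 members and 1.51% of all clones had an unadjusted p under 0.05. At matched times 0 members passed in limma early, middle, late or over all times, where 0%, 0.0129%, 0% and 0% of all clones did. The count over all clones changed with single serum mice: 104 clones passed in the middle stage without serum mouse 4 at 4 h, against 1 with it, and 12 passed late without serum mouse 4 at 24 h, against 0. Members passed in neither fit. An unadjusted p under 0.05 was reached by Usp19 over all times (-0.23, SE 0.10), where 3.44% of all clones reached it, and late (-0.38, SE 0.17), where 2.84% did. Psmd10, an assembly chaperone of the cap, reached it early (0.30, SE 0.14), where 1.45% of all clones did. In the middle stage Psmd7 (0.53, adjusted p = 0.937), Usp31 (0.40, 0.937) and Psmd3 (-0.41, 0.966) reached it, where 5.08% of all clones did.

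Other genes of the pathway were called singly, and the counts stand against the 8.23% of all clones called late and 9.21% called in the middle stage. The lists themselves were not tested. For pathway genes, here and below, no values at single hours or without the 7 mice that stood apart are given. Over all clones the middle count of 713 was 226 without those mice and 3 without 4 h. The late count of 637 was 1363 without those mice and 8 without 24 h. Of 33 other ubiquitin ligases 6 were called late, 4 up and 2 down, and 6 in the middle stage, 1 up and 5 down, 18.2% in each. Rnf11, an adaptor of HECT ligases, rose in middle (1.39, adjusted p = 0.00984) and late OA mice (1.13, adjusted p = 0.0264). Trim10, known from erythroid cells (0.78, adjusted p = 0.0188), Ubr1, which reads the amino terminus of proteins (0.76, 0.0369), and Ube3b (0.81, 0.0216), dim on most filters, rose late. Rnf128, known as GRAIL in T cells, fell in middle (-0.53, adjusted p = 0.046) and late OA mice (-0.73, adjusted p = 0.00911), and Rnf19a fell late (-0.72, adjusted p = 0.0362). In the middle stage Ube4b (-1.50, adjusted p = 0.00576), Znrf1 (-0.69, 0.0144), Nedd4l (-0.67, 0.00852) and Herc2 (-0.64, 0.00232) fell. Nedd4l was well above the empty spots on 19 of the 49 filters. Of 20 cullin and SCF ligase genes, Fbxo9 rose in middle (0.86, adjusted p = 0.0159) and late OA mice (0.72, adjusted p = 0.0352) and Cul4a late (0.73, adjusted p = 0.0118), and Keap1 is given above.

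Of 15 proteasome partners 3 (20%) were called in each stage, Nfe2l2 among them. Zfand2a, a stress-induced protein that binds the proteasome, fell in middle (-1.10, adjusted p = 0.0164) and late OA mice (-1.20, adjusted p = 0.00841). Its clone was well above the empty spots on 22 of the 49 filters. Nploc4, a cofactor of the segregase p97, fell in the middle stage (-1.17, adjusted p = 0.00317), and Tpp2, a peptidase that acts after the proteasome, fell late (-0.45, adjusted p = 0.0249). Of 16 other deubiquitinases 0 were called late and 2 (12.5%) in the middle stage, Otud5 down (-1.43, adjusted p = 0.0219) and Stambp up (0.34, adjusted p = 0.0357), the second dim on all but 1 filter. Of 13 ubiquitin-like modifiers, Map1lc3a was called down in both stages and was well above the empty spots on no filter. Of 5 activating enzymes and 8 COP9 signalosome genes 0 were called in either stage in limma, with 0 and 2 late and 1 and 4 middle genes at an unadjusted p under 0.05, where 26.2% of all clones reached it late and 26.7% in the middle stage. The ubiquitin gene Ubb gave 0.34, adjusted p = 0.224, in the middle and 0.33, adjusted p = 0.244, in the late stage, with 16 filters at the ceiling.

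Of 9 genes of MHC class I presentation, which takes up the peptides that proteasomes make, 1 was called in the middle stage and 0 late. It was Calr, the chaperone calreticulin (-1.92, adjusted p = 0.00481), while the peptide transporter gene Tap1 gave -0.18, adjusted p = 0.42, and B2m -0.05, adjusted p = 0.915. Among 20 interferon-stimulated genes, not all of them reported here, Isg20 (1.43, adjusted p = 0.0188) and Ifi44 (0.86, 0.0301) rose late. Irf8 (-0.88, adjusted p = 0.00232) and Ifi30 (-0.50, 0.037) fell in the middle stage. Ifi44 was well above the empty spots on 26 filters. Of all clones, 8.23% were called late and 9.21% in the middle stage. The mean deviation of the 20 genes had a median of 0.03 in early, -0.11 in middle and 0.07 in late OA mice.

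Clones of 1 gene did not always give the same sign. Of the 28 members with several clones, 14 had clones of both signs in the late comparison. The 5 clones of Usp9x, a large deubiquitinase encoded on the X chromosome, gave middle differences of 0.66, 0.03, 0.53, 0.42 and -0.07, and none passed. Usp4 gave -0.16 with the brighter clone and -0.58, adjusted p = 0.0196, with the other. Usp3, Usp25, Usp14, Psmb2, Psmb6, Psmd12, Ube2g2, Usp12 and Usp16 each rest on 1 clone.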

How the data were processed

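Per the file headers and values, the authors deposited a spot intensity per array (whole numbers, 15 up to a ceiling of 21815, not background corrected) and a quality score of 0 or 1 per spot, used here only in an alternative. Over all arrays 72.7% of clone spots had a score of 0, and the main fit kept them. Their deposited log2 table, quantile normalised and not set against serum, was another alternative.

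Intensities of 7771 clone spots were log2 transformed and quantile normalised with limma 3.58.1 in R 4.3.3, and spots of a clone (7739 clones) and arrays of a mouse were averaged. The model (lmFit, contrasts.fit, eBayes) had a mean for each of 12 groups over 37 mice, and p-values were adjusted by Benjamini-Hochberg over all clones, with a threshold of 0.05. A difference weights the times of a stage equally, while means ± SD, ranges and medians pool its mice. Well above the empty spots means 2.6 robust SDs above their median. The code was tested on simulated data. Clones were named by current RefSeq symbol (6430) or synonym (1039), and 270 had no symbol. Mice are separate animals by their labels, and their number limits the precision.

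Named are members past the threshold, the 3 highest and 3 lowest of each family in the middle and late stage, a set list of immunoproteasome and conjugating enzyme genes, and pathway genes past the threshold; some single genes are not reported here. Values per single hour and promoter genes were named after their values were seen. Members, lists and comparisons were chosen with earlier results of these data known. Alternatives changed the scaling, floor, dim-clone filter, quality filter, clone averaging and replicate block, or left out a mouse, a time or, added after seeing the data, the 7 mice apart.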

Additional observations from a re-analysis of the deposited data

Results flagged for a closer look

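Over the 19 members examined this way, 1 mouse lay far from the others in 4 of 114 groups, where chance gives about 1 in 20. Usp3 at 18 h measured 9.80 in OA mouse 3, against 9.10 to 9.15 in the other OA mice of that time. Usp12 at 3 h measured 8.89 in OA mouse 7, against 11.37 to 11.87 in the others. Ube2g2 at 18 h measured 6.69 in OA mouse 2, against 7.72 to 7.86 in the others. The mice with the low Usp12 and Ube2g2 values are among those that stood apart on the first component. Ube2g2 at 24 h measured 8.00 in OA mouse 5, against 7.55 to 7.62 in the others.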

How the results depend on the processing

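The count of members called late, 4, was 7 under median scaling, 12 without the mice apart, 15 without 18 h, 0 without 24 h or without 1.5 h, and 2 to 7 when 1 mouse was left out. With spots of quality score 0 left out, it was 6 of the 36 members still measured. Members not measured in that fit could not be checked by it. The middle count, 9, was 3 of the 34 members still measured with spots of quality score 0 left out, 1 without the mice apart, 16 without 3 h, 0 without 4 h or without 1.5 h, and 2 to 11 when 1 mouse was left out. Ube2l6 gave 0.87 late and -0.11 without 24 h. Over all clones the late count, 637, was 319 (of 2020 measured) with quality score 0 left out, 1363 without the mice apart, 1298 without 18 h, 8 without 24 h, 1 without 1.5 h and 256 to 912 with 1 mouse left out. The middle count, 713, was 196 (of 2037), 226 without the mice apart, 433 without 1 h, 24 without 1.5 h, 1475 without 3 h, 3 without 4 h and 220 to 887 with 1 mouse left out. Median scaling gave 560 up and 292 down late (337 and 300 otherwise) and 476 and 512 middle (234 and 479).

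With the mouse number as a replicate block, 6 members were called late and 7 middle, with 414 clones middle. Late, Psmb6 (-0.42, adjusted p = 0.0249) and Psmd8 (0.96, adjusted p = 0.0256) were gained and none of the 4 lost. Ube2l3, Usp12 and Usp14 lost the middle call and Psmb10 gained it (-1.45, adjusted p = 0.0329). Nothing in the labels pairs mice by number, and the deviations of 51 pairs with the same number had a median r of -0.01 (-0.56 to 0.63). Psmb10 also passed in the middle stage under median scaling (adjusted p = 0.0373). Fits without mice or with the quality filter hold fewer values; otherwise the cause was not tested. The other 6 comparisons gave 0 members under each alternative run. With 1 mouse left out, their counts over all clones were 0 to 104 for OA versus serum in the middle stage, 0 to 12 late, 0 early and 0 to 2 over all times, 0 to 6 for late versus early serum mice and 0 to 1 for the difference of the late changes. Signal near that of the empty spots limits 15 members, and serum groups of 1 or 2 mice limit the comparison with OA.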
